A study of Mus musculus with 8 samples.

Results

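Hedgehog signalling was followed here through 10 genes: the ligand Ihh, the receptor Ptch1, the signal transducer Smo, the coreceptors Boc, Gas1 and Cdon, the zinc finger transcription factors Gli1, Gli2 and Gli3, and the decoy receptor Hhip. They were taken by name from a table of 22053 rows, in which each of the 10 names had 1 row. Expression was measured by RNA-seq in 8 libraries of wild-type (WT) mice at postnatal day 10. Of these, 4 held candidate vertebral skeletal stem cells (vSSC) from the spine and 4 held long bone skeletal stem cells (lbSSC) from femur and tibia. Each group had 2 male and 2 female libraries, labelled replicates 1 and 2 (male) and 3 and 4 (female). Both groups were primary cells sorted for CD200 and against CD31, TER119, CD45, CD105, 6C3 and Thy. The labels call the samples biological replicates without saying how many animals each holds, so p-values speak only of the variation among these libraries, which may be technical.

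Hedgehog proteins are secreted signals. Without ligand, Ptch1 holds Smo inactive, and Gli3, and in part Gli2, are processed into repressors. Ligand bound to Ptch1 releases Smo, which acts at the primary cilium to turn Gli2 and Gli3 into activators. Boc, Gas1 and Cdon bind ligand together with Ptch1 and raise the response, whereas Hhip binds ligand and withholds it. Gli1, Ptch1 and Hhip are themselves switched on by the pathway and serve as its usual readouts. In growing bone Ihh comes mainly from prehypertrophic chondrocytes of the growth plate, where it drives chondrocyte proliferation, keeps Pthlh (parathyroid hormone related protein) on and directs osteoblasts to form beside the cartilage.

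Values are FPKM, fragment counts scaled by transcript length and by the number of mapped fragments, as mean ± SD with n = 4 per group. Differences, with their SE, were taken between log2(FPKM + 1) values as vSSC minus lbSSC, a scale on which genes of low FPKM change less than in FPKM itself. A gene was called when limma's Benjamini-Hochberg adjusted p over all genes tested was under 0.05. Summed FPKM per library ran from 517314 to 571869 in vSSC and from 460302 to 521489 in lbSSC. Cytosolic ribosomal protein genes took 18.3% to 21.4% of the FPKM in vSSC and 15.7% to 18.4% in lbSSC, with the highest shares in vSSC replicates 1 and 3. The share thus went largely with site, so a fit that takes it as a covariate separates it from site only in part. Cd200 averaged 109.3 ± 22.5 FPKM in vSSC and 101.0 ± 28.1 FPKM in lbSSC. The transcripts of the other sorting antigens with a row used here (Pecam1, Ptprc, Thy1, Enpep and Eng) each averaged at most 1.22 FPKM in either group. Cartilage genes were abundant in both groups, with Col2a1 at 10866 ± 3960 FPKM in vSSC and 14146 ± 4270 FPKM in lbSSC. Red cell and neutrophil transcripts remained after the sort, with Hbb-bs at 2773 ± 350.5 FPKM in vSSC and 4032 ± 1598 FPKM in lbSSC, and S100a8 at 155.2 ± 37.7 FPKM in vSSC and 30.9 ± 19.7 FPKM in lbSSC.

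The sequences just before the start sites are shown for the 3 members that were higher in vSSC and for Gas1, the most abundant coreceptor. They come from RefSeq's GRCm38.p6 annotation, which had a window for 8 of the 10 members, and give the 250 bases before the listed start, 5′ to 3′ on the gene's strand, with CG dinucleotides in capitals. All 4 genes are on the minus strand, and the window of Ptch1 lies within the span that the table gives the gene.
Ihh, chr1:74951673-74951922: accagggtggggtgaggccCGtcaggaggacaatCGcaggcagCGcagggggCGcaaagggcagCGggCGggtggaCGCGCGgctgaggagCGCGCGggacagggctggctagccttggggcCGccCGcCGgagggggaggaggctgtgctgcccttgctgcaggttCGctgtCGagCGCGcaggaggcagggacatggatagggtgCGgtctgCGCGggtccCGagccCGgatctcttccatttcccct
Ptch1, chr13:63565736-63565985: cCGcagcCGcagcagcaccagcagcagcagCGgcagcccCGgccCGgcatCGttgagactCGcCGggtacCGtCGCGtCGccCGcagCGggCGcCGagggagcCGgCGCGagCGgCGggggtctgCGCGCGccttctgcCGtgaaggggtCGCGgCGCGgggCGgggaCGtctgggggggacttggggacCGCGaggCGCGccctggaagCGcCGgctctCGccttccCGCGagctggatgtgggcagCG
Hhip, chr8:80058009-80058258: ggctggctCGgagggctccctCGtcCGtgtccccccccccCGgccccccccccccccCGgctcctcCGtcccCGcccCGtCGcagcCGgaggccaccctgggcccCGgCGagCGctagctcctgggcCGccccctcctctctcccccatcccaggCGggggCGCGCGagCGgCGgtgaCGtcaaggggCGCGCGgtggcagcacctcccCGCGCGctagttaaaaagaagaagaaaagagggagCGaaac
Gas1, chr13:60177536-60177785: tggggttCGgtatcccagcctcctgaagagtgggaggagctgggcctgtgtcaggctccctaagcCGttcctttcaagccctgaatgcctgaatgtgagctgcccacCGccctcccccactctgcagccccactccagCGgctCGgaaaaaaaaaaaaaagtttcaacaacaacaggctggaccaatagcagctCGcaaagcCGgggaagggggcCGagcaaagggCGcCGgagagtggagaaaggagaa
The window held 24 CG dinucleotides for Ihh, 41 for Ptch1, 28 for Hhip and 10 for Gas1, where the median over 32851 windows was 6. The Gli binding consensus GACCACCCA, searched on both strands in the 300 bases that also take in 50 after the start, was present in 0.253% of all windows and in none of the 8 of the members. The TATA box letters TATAAA, on both strands, were present in 13.6% of all windows and likewise in none of the 8. With shares this low and only 8 windows, neither absence can speak of how these genes are controlled.

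Vertebral cells held more ligand transcript, more Ptch1 and more Hhip, and less of all 3 coreceptors. Of the 10 members, all of which passed the filter on low values, 3 were higher and 4 were lower in vSSC, against 23.5% of all 10729 genes tested that were called, 14.3% as higher and 9.17% as lower. The groups of libraries did not overlap in 7 members, 3 above and 4 below, against 25.8% of all genes tested, 15.8% above and 9.99% below. The median difference of the 10 members was -0.32, beside 0.08 over all genes tested. Other scalings of the table moved the median over all genes, to -0.0031 with median-of-ratios factors, to 0.03 with quantile normalization and to -0.04 with every library brought to one sum. Against 1534 higher and 984 lower genes as deposited, the calls were then 1211 higher and 1237 lower with median-of-ratios factors, 1091 higher and 1118 lower with quantiles, and 1002 higher and 1363 lower with one sum. Of the members, 3 higher and 5 lower were called with median-of-ratios factors and with one sum, and 2 higher and 4 lower with quantiles.

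**Figure D1:**
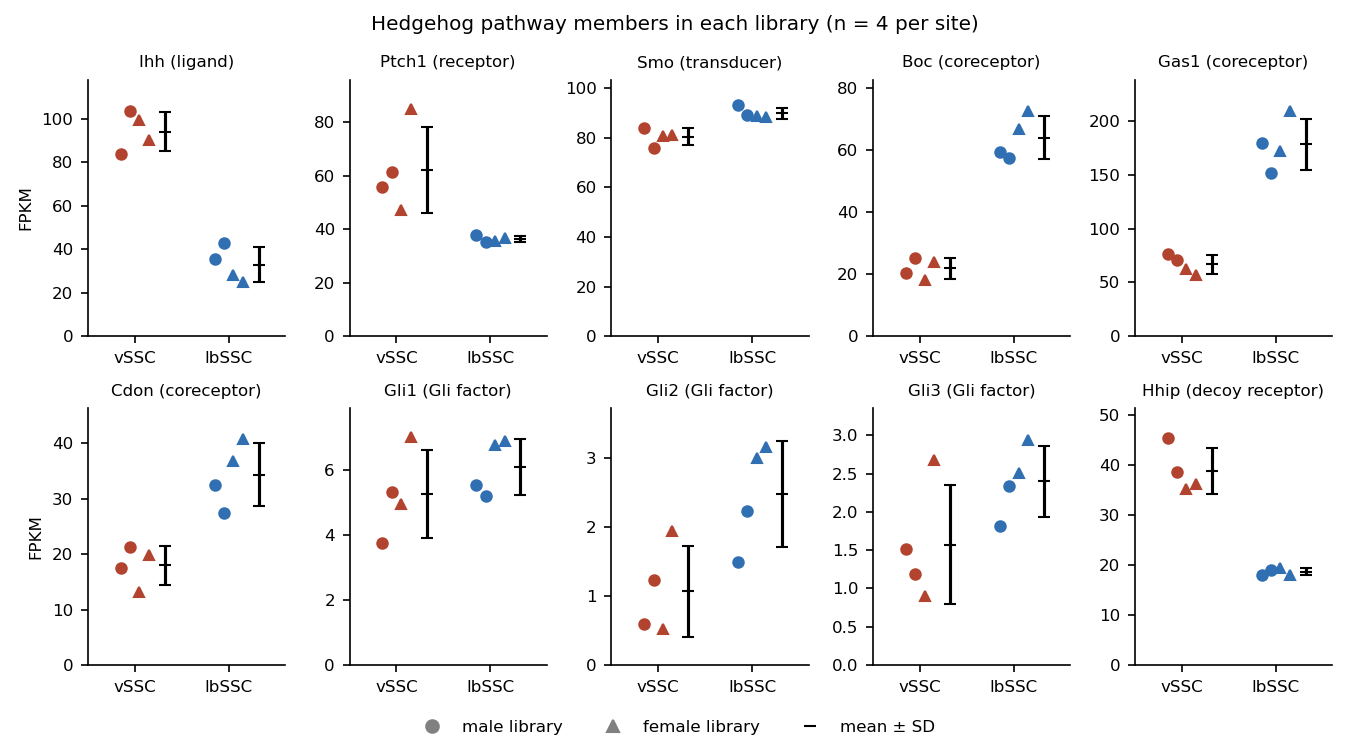
FPKM of the 10 members in each library, with vSSC (red) left of lbSSC (blue), circles for male and triangles for female libraries, and black marks for the mean ± SD (n = 4); each axis starts at 0. Ihh, Ptch1 and Hhip lie higher in every vSSC library, Boc, Gas1, Cdon and Smo lie lower, and the 3 Gli genes overlap between the groups.

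By its mean, Ihh was the most abundant member in vertebral cells, though its vSSC libraries overlapped with those of Smo. Ihh stood at 83.6, 103.3, 99.2 and 89.9 FPKM in vSSC replicates 1 to 4, against 35.5, 42.9, 28.2 and 24.9 FPKM in lbSSC replicates 1 to 4. Every vSSC library lay above every lbSSC library. The mean in vSSC was 2.86 times that in lbSSC, a difference of 1.51 ± 0.16 (limma, adjusted p = 6.93e-05). The call held in all 21 alternatives, with differences from 1.21 to 1.65. Ihh lies on chromosome 1 of GRCm38 at 74945315 to 74951672 on the minus strand. In bulk samples, fewer cells that express a gene and less RNA per cell cannot be told apart.

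Of 6 markers of prehypertrophic chondrocytes, the usual source of Ihh, 4 (Pth1r, Mef2c, Fgfr3 and Panx3) were higher in vSSC and none was lower, against 14.3% and 9.17% of all genes tested. The other 2 were not called, Runx2 at 0.15 (adjusted p = 0.615) and Runx3 at 0.04 (adjusted p = 0.901). Their FPKM summed to between 764.5 and 831.2 in vSSC libraries and between 344.7 and 470.9 in lbSSC libraries. Panx3, a channel protein of prehypertrophic chondrocytes, averaged 239.0 ± 18.99 FPKM in vSSC and 103.5 ± 23.6 FPKM in lbSSC (a difference of 1.23 ± 0.15, adjusted p = 0.000245). Of 5 hypertrophic genes, Col10a1 alone was called, as lower in vSSC, and their sums were 844.5 to 1164 FPKM in vSSC and 1101 to 2103 FPKM in lbSSC. None of these markers was at 0. Their part in the difference of Ihh was not tested.

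The other ligands were low. Shh, the ligand of notochord and nucleus pulposus, had 0 FPKM in each of the 4 vSSC libraries, and in lbSSC it was at 0.0211 FPKM in replicate 2 and at 0 in the other 3. Dhh, the ligand of Schwann cells, stood at 1.06, 1.48, 0.682 and 0.503 FPKM in vSSC and at 0.456, 0.279, 0.573 and 0.535 FPKM in lbSSC. The groups overlapped and Dhh did not pass the filter, so it was not tested. Of 7 genes listed for notochord and nucleus pulposus, Noto was at 0 in all 8 libraries, and T, Shh, Krt8 and Krt19 each averaged at most 0.363 FPKM in either group. The other 2, which are not specific to those cells, were tested and were higher in vSSC: Cd24a (508.7 ± 69.4 FPKM in vSSC, 245.6 ± 64.7 in lbSSC, adjusted p = 0.00154) and Foxa2 (11.9 ± 4.93 FPKM in vSSC, 6.42 ± 1.37 in lbSSC, adjusted p = 0.0362).

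Ptch1 and Hhip, receptor and decoy receptor, were both higher in vertebral cells. Ptch1 stood at 55.8, 61.3, 47.2 and 84.7 FPKM in vSSC replicates 1 to 4, against 37.6, 35.2, 35.4 and 36.5 FPKM in lbSSC. The lbSSC libraries were nearly level, with a coefficient of variation of 3.15%, whereas the vSSC libraries spread by 25.8%, with replicate 4 highest and replicate 3 lowest. The groups did not overlap, and the mean in vSSC was 1.72 times that in lbSSC (0.73 ± 0.15, adjusted p = 0.00642). It missed the threshold with quantile normalization (0.53, adjusted p = 0.0564) and where low values were not filtered (0.73, adjusted p = 0.0513). Hhip stood at 45.3, 38.6, 35.2 and 36.3 FPKM in vSSC, against 18.0, 19.1, 19.4 and 18.1 FPKM in lbSSC. Every vSSC library lay above every lbSSC library, with a mean 2.08 times as high and a difference of 1.02 ± 0.11 (adjusted p = 8.75e-05). Its call held in all 21 alternatives, from 0.86 to 1.06.

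Ptch1 is on chromosome 13 at 63508328 to 63573598 and Hhip on chromosome 8 at 79965851 to 80058006, both on the minus strand.

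All 3 coreceptors were lower in vertebral cells. Gas1, a surface protein held by a lipid anchor, was the most abundant member in long bone cells. It stood at 76.2, 71.2, 62.1 and 57.4 FPKM in vSSC, against 180.2, 152.0, 172.0 and 209.6 FPKM in lbSSC. Every vSSC library lay below every lbSSC library, and the mean in vSSC was 0.374 of that in lbSSC (-1.41 ± 0.13, adjusted p = 2.57e-05). Boc, a transmembrane protein of the immunoglobulin superfamily, stood at 20.3, 25.4, 18.1 and 23.9 FPKM in vSSC, against 59.5, 57.6, 66.8 and 72.6 FPKM in lbSSC. This was the largest fall among the members, to 0.342 of the lbSSC mean (-1.51 ± 0.13, adjusted p = 1.67e-05). Cdon, which resembles Boc in build, stood at 17.5, 21.3, 13.1 and 19.9 FPKM in vSSC, against 32.5, 27.5, 36.8 and 40.7 FPKM in lbSSC (-0.91 ± 0.16, adjusted p = 0.00272). The groups did not overlap for any of the 3.

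The calls of Boc and Gas1 held in all 21 alternatives, from -1.68 to -1.16 for Boc and from -1.60 to -1.33 for Gas1. The call of Cdon was lost once each library's ribosomal protein share entered as a covariate (-0.45, adjusted p = 0.241). On GRCm38, Boc lies on chromosome 16 at 44485045 to 44558897 (minus strand), Gas1 on chromosome 13 at 60174405 to 60177365 (minus strand) and Cdon on chromosome 9 at 35421128 to 35507652 (plus strand). The library kit does not mark the strand, and Gas1 overlaps the opposite-strand noncoding gene Gm48488 by 684 bases, so reads of that stretch cannot be assigned to one of them.

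The 3 coreceptors together summed to 93.4 to 117.9 FPKM in vSSC and 237.0 to 323.0 FPKM in lbSSC. Gas1 made up 56.7% to 66.9% of that sum in vSSC and 62.4% to 66.2% in lbSSC, so it was the largest of the 3 in every library. Cdon made up 14.1% to 19.7% of the sum in vSSC and 11.6% to 13.4% in lbSSC, and these ranges did not overlap.

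Genes of fibroblasts and periosteum, tissues in which the coreceptors are also expressed, split between the sites. Of 6 (Prrx1, Postn, Dpt, Pdgfra, Ly6a and Ctsk), 2 were higher and 3 were lower in vSSC. Beside this count and those that follow, 14.3% of all genes tested were called as higher and 9.17% as lower. The sums of the 6 genes were 122.3 to 145.4 FPKM in vSSC and 158.6 to 207.7 FPKM in lbSSC. These sums lean on Ctsk, the largest of the 6 in every library, at 50.7 to 72.8 FPKM in vSSC and 98.2 to 119.7 FPKM in lbSSC. Of 7 osteoblast genes 1 (Sp7) was higher and 3 (Col1a1, Bglap and Dmp1) were lower, while Alpl, Phex and Bglap2 were not called. Their sums were 1052 to 1105 FPKM in vSSC and 3935 to 5829 FPKM in lbSSC. Col1a1 alone made up most of that sum in every library, at 622.8 to 787.6 FPKM in vSSC and 3636 to 5344 FPKM in lbSSC. Of 5 tendon genes none was higher and 3 (Tnmd, Kera and Fmod) were lower, with sums of 1390 to 2132 FPKM in vSSC and 1908 to 3207 FPKM in lbSSC. Most of that sum was Fmod in every library, at 1336 to 2064 FPKM in vSSC and 1815 to 3117 FPKM in lbSSC. Of 5 marrow stroma genes none was higher and 3 were lower (Adipoq at -1.58, Cxcl12 at -1.42 and Kitl at -0.86), with sums of 12.1 to 22.4 FPKM in vSSC and 31.4 to 57.6 FPKM in lbSSC. None of these genes was at 0 in any library, and their part in the difference of the coreceptors was not tested.

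Smo, the transducer, was close to level between the sites. It stood at 83.9, 75.7, 80.6 and 81.0 FPKM in vSSC, against 93.1, 89.0, 88.5 and 88.2 FPKM in lbSSC. The groups did not overlap, but the vSSC mean was 0.895 of that in lbSSC and the difference did not pass the test (-0.16 ± 0.09, adjusted p = 0.208). It was called as lower in vSSC under each of the 3 other scalings, at -0.26 with median-of-ratios factors (adjusted p = 0.0338), -0.37 with quantiles (0.00709) and -0.31 with one sum (0.0162). Smo had the lowest coefficients of variation of the members, 4.24% in vSSC and 2.56% in lbSSC. It lies on chromosome 6 at 29735503 to 29761365 on the plus strand.

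The Gli factors were the lowest members at both sites. Gli1, a transcriptional activator and target of the pathway, stood at 3.75, 5.30, 4.94 and 7.002 FPKM in vSSC, against 5.52, 5.18, 6.75 and 6.88 FPKM in lbSSC. The groups overlapped, and the difference was -0.20 ± 0.17 (adjusted p = 0.422). Gli2, the main activator, stood at 0.594, 1.22, 0.524 and 1.94 FPKM in vSSC, against 1.49, 2.23, 3.00 and 3.16 FPKM in lbSSC. The highest vSSC library lay above the lowest lbSSC library, and the difference of -0.77 ± 0.24 passed narrowly (adjusted p = 0.0390). Gli3, the main repressor, stood at 1.51, 1.19, 0.905 and 2.68 FPKM in vSSC, against 1.81, 2.34, 2.505 and 2.94 FPKM in lbSSC (-0.44 ± 0.21, adjusted p = 0.147), again with overlap.

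The call of Gli2 depended on single libraries. It was lost without vSSC replicate 1 (adjusted p = 0.0966), 2 (0.0562) or 3 (0.103) and without lbSSC replicate 2 (0.0621), 3 (0.106) or 4 (0.116), with differences from -0.82 to -0.64. It was also lost after quantile normalization (-0.70, adjusted p = 0.0646) and with no filter (-0.77, adjusted p = 0.160). Gli3 was called as lower without vSSC replicate 4 (-0.63, adjusted p = 0.0280). Gli1 lies on chromosome 10 at 127329889 to 127341589, Gli2 on chromosome 1 at 118834132 to 119053619 (both minus strand) and Gli3 on chromosome 13 at 15463235 to 15730026 (plus strand). Gli1 shares 9199 bases of its span with the antisense gene Gm47200 and 55 with Arhgap9, whose reads cannot be told from its own by strand.

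The ribosomal protein share of a library was 21.2%, 19.5%, 21.4% and 18.3% in vSSC replicates 1 to 4 and 18.4%, 17.9%, 15.7% and 15.7% in lbSSC replicates 1 to 4. In vSSC replicates 1 and 3, which had the highest shares, 5 of the 10 members (Ptch1, Gli1, Gli2, Boc and Cdon) were lower than in both other vSSC libraries, against 19.9% of all genes tested. With the share as a covariate, the difference of Gli1 turned to 0.27 (adjusted p = 0.576), that of Gli2 to 0.07 (0.928) and that of Gli3 to 0.10 (0.913). The differences of Ihh (1.21), Ptch1 (1.08), Hhip (0.97), Boc (-1.16) and Gas1 (-1.40) kept their call in that fit. Site and share went largely together, so a call lost there does not show that the difference comes from the share. Without vSSC replicates 1 and 3, the difference of Gli1 was 0.01 (adjusted p = 0.978), that of Gli2 -0.41 (0.309) and that of Gli3 -0.25 (0.544), while Ihh (1.55), Ptch1 (0.98), Hhip (0.97), Boc (-1.34), Gas1 (-1.46) and Cdon (-0.70) were called.

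**Figure D2:**
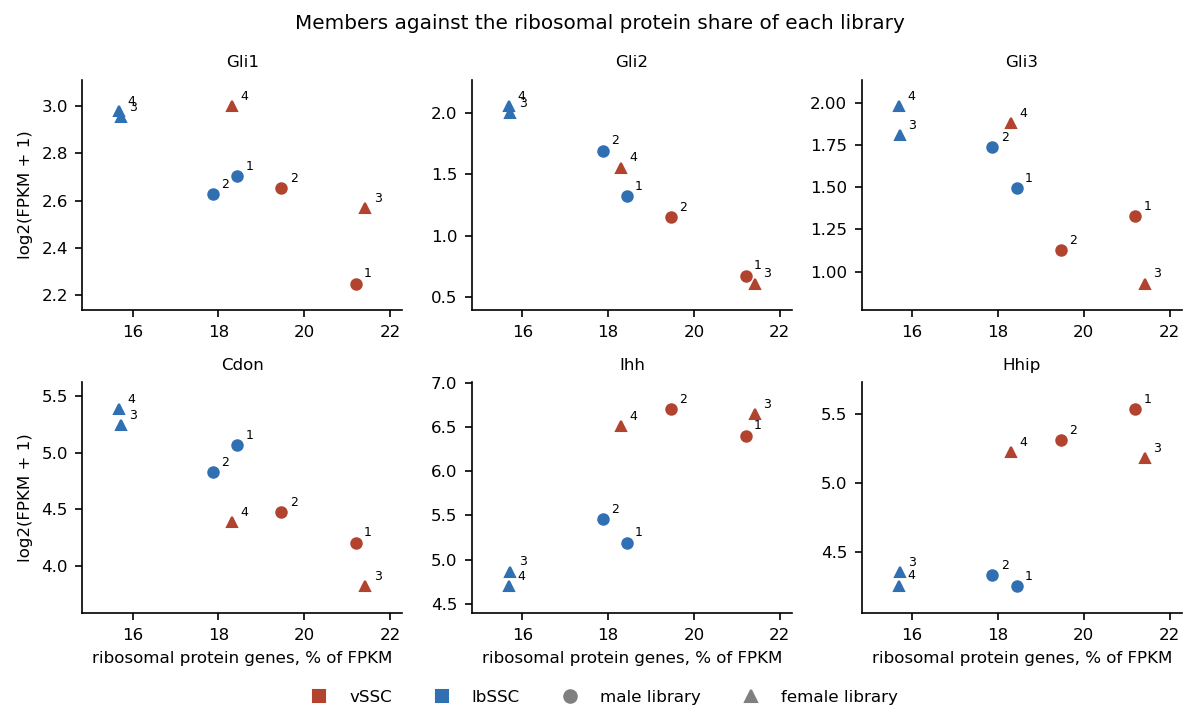
Log2(FPKM + 1) of 6 members (vertical axis) against the percentage of a library's FPKM in ribosomal protein genes (horizontal axis), for vSSC (red) and lbSSC (blue), with replicate numbers beside the points, circles for male and triangles for female libraries. Gli2 is lowest in vSSC replicate 3 (0.524 FPKM, a share of 21.4%) and highest in lbSSC replicate 4 (3.16 FPKM, a share of 15.7%), which also differ in site. Ihh and Hhip do not overlap between the sites. Within lbSSC, Ihh is at 35.5 and 42.9 FPKM in replicates 1 and 2 (shares of 18.4% and 17.9%). In lbSSC replicates 3 and 4 it is at 28.2 and 24.9 FPKM (shares of 15.7%). Site and share go largely together.

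**Figure D3:**
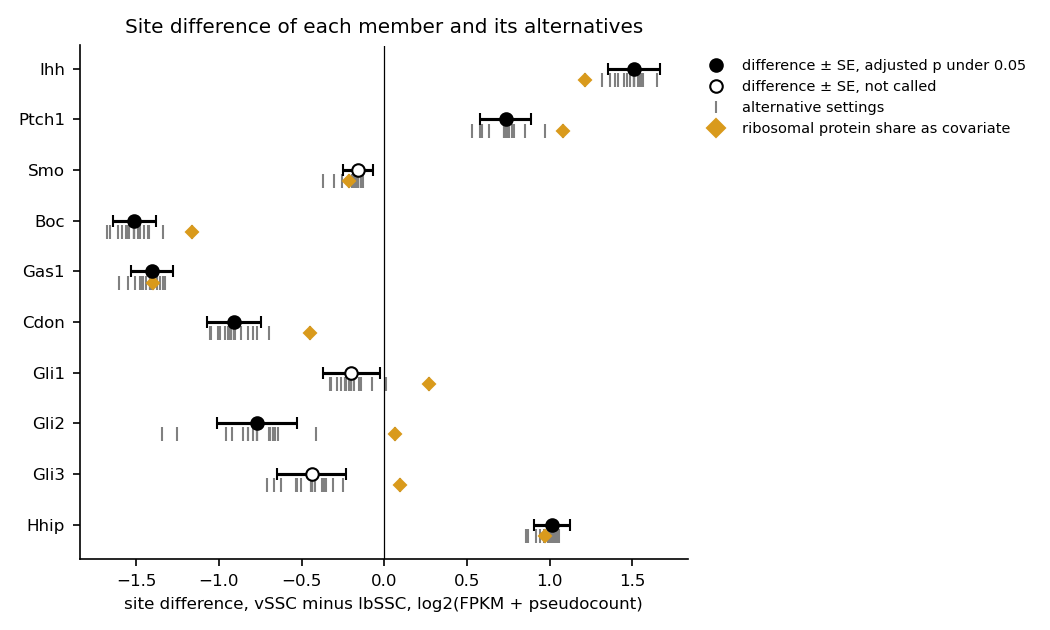
Difference of each member, vSSC minus lbSSC, on the log2 scale with its SE (filled where called, open where not), with grey ticks for the alternative settings and a diamond for the fit with the ribosomal protein share as covariate. Ihh, Ptch1, Hhip, Boc, Gas1, Cdon and Smo stay on one side of 0 throughout, and Gli1, Gli2 and Gli3 do not.

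The order of the members by level differed between the sites. In vSSC the means ran from Ihh (94.0 ± 8.92) through Smo (80.3 ± 3.40), Gas1 (66.7 ± 8.55) and Ptch1 (62.3 ± 16.0), 4 genes of which each overlapped with the next, to Hhip (38.8 ± 4.56), Boc (21.9 ± 3.32) and Cdon (18.0 ± 3.58). Hhip stood apart there, and Boc and Cdon overlapped. In lbSSC the means ran from Gas1 (178.4 ± 23.9) through Smo (89.7 ± 2.30) and Boc (64.1 ± 6.91), which stood apart from each other, to Ptch1 (36.2 ± 1.14), Cdon (34.4 ± 5.72) and Ihh (32.9 ± 8.01), which overlapped. Hhip followed at 18.6 ± 0.715 FPKM in lbSSC. Gli1 came next at both sites, with 5.25 ± 1.34 FPKM in vSSC and 6.08 ± 0.860 FPKM in lbSSC, and Gli2 and Gli3 were last and overlapped. Gli2 averaged 1.07 ± 0.658 FPKM in vSSC and 2.47 ± 0.766 FPKM in lbSSC, and Gli3 averaged 1.57 ± 0.779 FPKM in vSSC and 2.40 ± 0.466 FPKM in lbSSC.

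Ratios of 2 members within a library are free of the scaling between libraries and are given as a description, without a test. Gli1 over Ihh was 0.0449, 0.0513, 0.0498 and 0.0779 in vSSC, against 0.155, 0.121, 0.240 and 0.276 in lbSSC. The ratio was higher in every lbSSC library than in any vSSC library. Gli1 itself was not called and the mean of Ihh was 2.86 times as high in vSSC. The ratio therefore mostly restates the difference of Ihh. Ptch1 over Ihh was 0.476 to 0.942 in vSSC and 0.820 to 1.47 in lbSSC, and Hhip over Ihh was 0.355 to 0.543 in vSSC and 0.445 to 0.724 in lbSSC, both with overlap. Ptch1 over Smo was 0.665, 0.810, 0.586 and 1.05 in vSSC, against 0.404, 0.395, 0.400 and 0.414 in lbSSC, with no overlap. Boc over Cdon was 1.16 to 1.38 in vSSC and 1.78 to 2.097 in lbSSC, also apart, while Gas1 over Cdon was 2.88 to 4.72 in vSSC and 4.67 to 5.55 in lbSSC. Gli3 over Gli2 was 0.972 to 2.55 in vSSC and 0.836 to 1.21 in lbSSC, and Gli1 over Gli2 was 3.61 to 9.42 in vSSC and 2.18 to 3.69 in lbSSC.

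**Figure D4:**
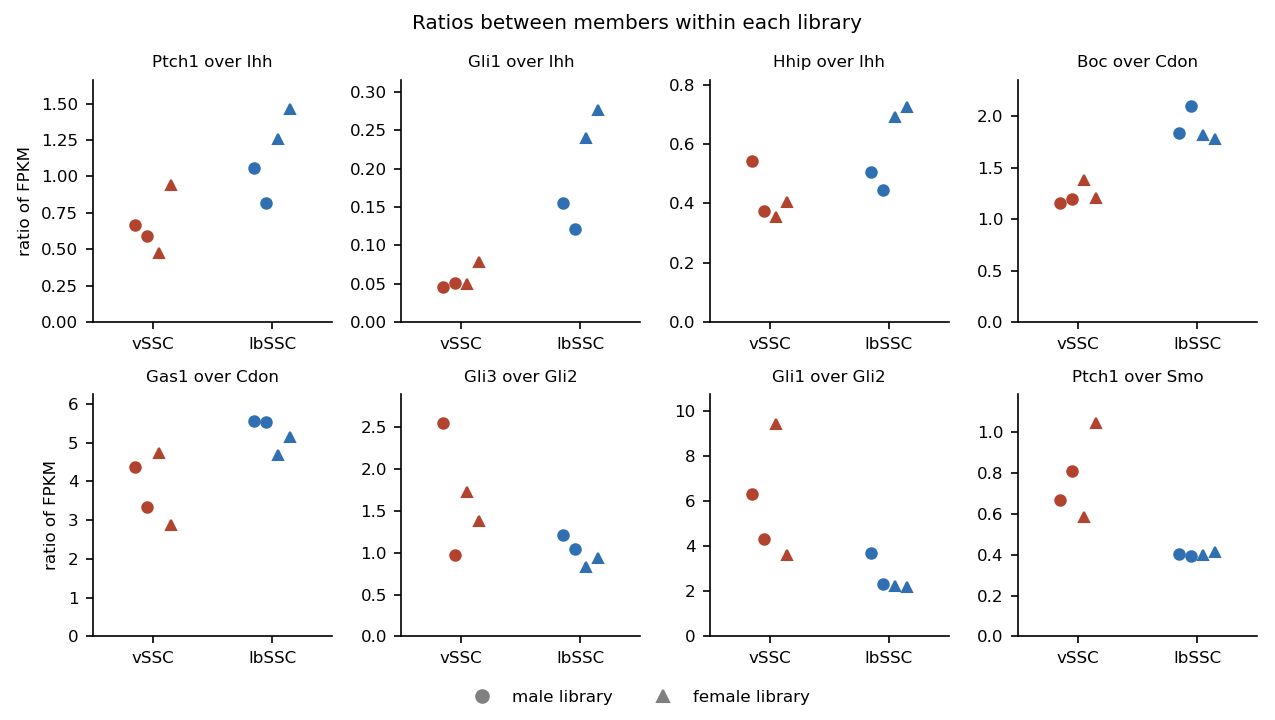
Ratio of the FPKM of 2 members in each library, vSSC (red) left of lbSSC (blue), circles for male and triangles for female libraries; each axis starts at 0. Gli1 over Ihh and Boc over Cdon lie lower, and Ptch1 over Smo lies higher, in every vSSC library.

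The other genes of the pathway were read from lists of surface and release factors, intracellular regulators, cilium genes and reported target genes. Of 13 further ligand, surface and release genes, 8 were tested, of which 1 was higher and 2 were lower in vSSC, with a median difference of -0.20. That is 37.5% called, beside 23.5% of all genes tested. Scube2 and Scube3, secreted proteins of a family known for helping release Hedgehog ligand, were both lower. Scube2 stood at 0.676, 0.593, 0.370 and 1.49 FPKM in vSSC, against 3.47, 3.39, 5.23 and 2.90 FPKM in lbSSC (-1.43 ± 0.21, adjusted p = 0.000819). Scube3 stood at 1.18, 2.67, 1.14 and 2.52 FPKM in vSSC, against 6.01, 4.78, 8.97 and 10.3 FPKM in lbSSC (-1.56 ± 0.25, adjusted p = 0.00136). The groups did not overlap for either, and both calls were lost once the ribosomal protein share entered as a covariate (-0.999, adjusted p = 0.0963 for Scube2 and -0.69, adjusted p = 0.144 for Scube3).

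Gpc3, a glypican that binds Hedgehog ligand and limits signalling in mice, was the higher one. It averaged 75.6 ± 14.7 FPKM in vSSC and 49.7 ± 10.1 FPKM in lbSSC (a difference of 0.60 ± 0.17, adjusted p = 0.0282). That call was lost under each of the 3 other scalings (adjusted p from 0.0747 to 0.178), and without vSSC replicate 3 (0.0695), vSSC replicate 4 (0.0530) or lbSSC replicate 1 (0.0529). It was also lost where low values were not filtered (0.136) and without vSSC replicates 1 and 3 together (0.0623), while the ribosomal protein share as covariate gave a larger difference of 1.06 (0.0136). Among the abundant genes of the list that were not called were Ext1, an enzyme of heparan sulfate chains (0.03 ± 0.11), and Hhat, the enzyme that adds palmitate to the ligand (0.18 ± 0.15). The scavenger receptor Lrp2 was listed at 0 in all 8 libraries.

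Of 24 intracellular regulators, 23 had a row and 22 were tested, of which none was higher and 4 were lower in vSSC, with a median of -0.02. The share called was 18.2%, near the 23.5% of all genes tested. Gnas, which encodes the stimulatory G protein subunit that feeds protein kinase A, averaged 1153 ± 112.5 FPKM in vSSC and 1624 ± 119.3 FPKM in lbSSC (a difference of -0.50 ± 0.12, adjusted p = 0.0118). Mgrn1, a ubiquitin ligase that acts on Smo, was at -0.43 ± 0.12 (adjusted p = 0.0204). The kinases Gsk3b (-0.45 ± 0.14, adjusted p = 0.0363) and Prkaca (-0.33 ± 0.11, adjusted p = 0.0443), which phosphorylate Gli proteins, were near the threshold. The call of Prkaca was lost without any one of the 8 libraries (adjusted p from 0.0580 to 0.127), that of Gsk3b without any one but vSSC replicate 4 (0.0512 to 0.106 where lost), and that of Mgrn1 without vSSC replicate 1 (0.0552), vSSC replicate 3 (0.0577) or lbSSC replicate 3 (0.0683). All 4 calls were lost once the ribosomal protein share entered as a covariate (adjusted p from 0.205 to 0.655). The calls of Gnas (0.0540) and Gsk3b (0.0573) were lost as well where low values were not filtered. Without vSSC replicates 1 and 3 together all 4 were lost: Gnas (-0.38, 0.144), Gsk3b (0.162), Mgrn1 (0.173) and Prkaca (0.211). That of Prkaca was also lost with no variance trend (0.0518) and with the replicate number as a block (0.0596). Sufu, which holds Gli proteins in the cytoplasm, differed by -0.02 ± 0.16 (adjusted p = 0.929), a value named after it was seen. The most abundant uncalled genes were Prkar1a (0.24 ± 0.11), Csnk1a1 (0.19 ± 0.11) and Spop (0.14 ± 0.12).

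The primary cilium is the organelle in which vertebrate Hedgehog signalling takes place. Of 27 cilium genes listed, 22 were tested, of which 1 was higher and none was lower, with a median of -0.00098. The share called was 4.55%, beside 23.5% of all genes tested. The gene called was Ift20, a transport protein of the cilium and the Golgi, at 169.1 ± 15.2 FPKM in vSSC and 127.7 ± 18.4 FPKM in lbSSC (a difference of 0.41 ± 0.12, adjusted p = 0.0354). Its call was lost without vSSC replicate 1 (0.0755), 2 (0.0723) or 3 (0.0985), without lbSSC replicate 3 (0.0736) or 4 (0.0721), and after quantile normalization (0.115) or rescaling to one sum (0.0574). It was also lost where low values were not filtered (0.106), with no variance trend (0.0566), without vSSC replicates 1 and 3 together (0.226), and where the ribosomal protein share was a covariate, which left a difference of 0.11 (0.786). The most abundant uncalled genes were Arl3 (0.30 ± 0.11), Ift57 (0.18 ± 0.18) and Ift52 (0.27 ± 0.13).

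Reported target genes of the pathway split in both directions. These genes answer to other signals as well, and of 18 listed 16 had a row and 11 were tested, of which 4 were higher and 5 were lower in vSSC, with a median of -0.57. The share called, 81.8%, stood beside 23.5% for all genes tested; the list was drawn up with results of these data known. Higher were Pax1 (3.65 ± 0.20) and Nkx3-2 (1.16 ± 0.12), transcription factors that Hedgehog signals switch on in the sclerotome, Ccnd1, a cyclin of the G1 phase (1.18 ± 0.14), and Snai1, a transcriptional repressor (0.70 ± 0.19). Nkx3-2 stood at 18.5, 17.7, 19.4 and 22.2 FPKM in vSSC, against 9.27, 7.52, 7.20 and 8.60 FPKM in lbSSC (adjusted p = 8.39e-05). Ccnd1 stood at 46.8, 46.4, 46.3 and 53.2 FPKM in vSSC, against 25.5, 23.2, 18.8 and 16.2 FPKM in lbSSC (adjusted p = 0.00016). Both groups of libraries were fully apart in these genes.

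Lower in vSSC were the Wnt antagonist Sfrp1 (-3.35 ± 0.15), the growth factors Bmp4 (-1.70 ± 0.16) and Tgfb2 (-0.74 ± 0.13), Ccnd2, another D-type cyclin of G1 (-0.79 ± 0.10), and the survival factor Bcl2 (-0.60 ± 0.14). Ccnd2 stood at 32.3, 34.9, 28.3 and 32.1 FPKM in vSSC, against 51.0, 59.7, 55.0 and 57.8 FPKM in lbSSC (adjusted p = 0.000332). Ccnd1 and Ccnd2 thus moved in opposite directions, each with no overlap between the groups. The call of Snai1 was lost under each of the 3 other scalings (adjusted p from 0.0550 to 0.134) and without vSSC replicate 2 (0.0606), lbSSC replicate 1 (0.0522) or lbSSC replicate 4 (0.0637), and where low values were not filtered (0.130). Its difference was larger where the ribosomal protein share was a covariate (1.27, adjusted p = 0.00617) and without vSSC replicates 1 and 3 together (1.03, adjusted p = 0.00479). The calls of Bcl2 (-0.54, adjusted p = 0.240) and Tgfb2 (-0.58, adjusted p = 0.128) were lost once the ribosomal protein share entered as a covariate. Their SE rose in that fit, from 0.14 to 0.22 for Bcl2 and from 0.13 to 0.19 for Tgfb2.

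Pthlh, which Ihh maintains in the growth plate, did not pass the test. It stood at 17.3, 14.0, 13.05 and 13.7 FPKM in vSSC, against 16.9, 14.9, 16.7 and 15.5 FPKM in lbSSC, with overlap (-0.14 ± 0.12, adjusted p = 0.416). Foxc1 was not called either (-0.57 ± 0.27, adjusted p = 0.145). Foxf2, a forkhead factor, did not pass the filter on low values and was not tested. It stood at 0.815, 2.29, 1.11 and 1.78 FPKM in vSSC, against 0.283, 0.172, 0.0694 and 0.0763 FPKM in lbSSC, and these groups did not overlap.

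**Figure D5:**
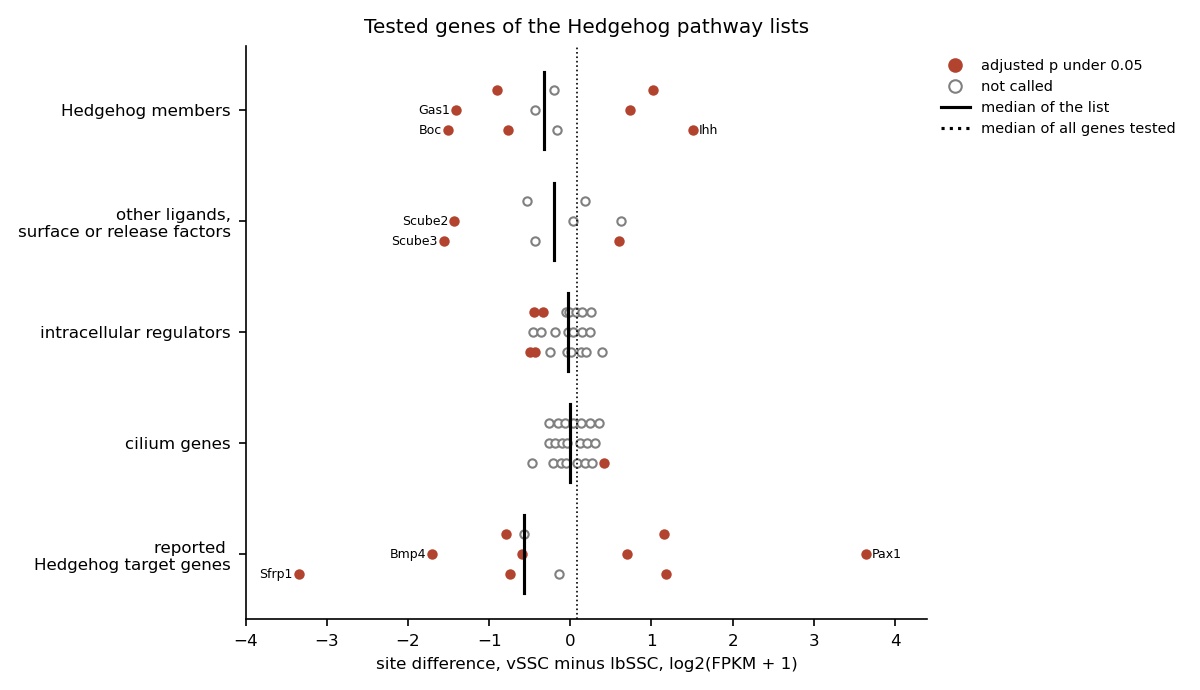
Difference of each tested gene of the 5 lists, vSSC minus lbSSC, in log2(FPKM + 1) units (filled where called, open where not), with a bar at each list's median and a dotted line at the median of all genes tested; genes beyond 1.3 in size are named. The cilium genes and intracellular regulators lie within 0.5 of 0, while the members and the reported target genes spread to both sides.

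On the log2(FPKM + 1) scale, some genes traced nearly the same profile over the 8 libraries as a member. The measure was the root mean square difference of log2(FPKM + 1) after each gene was centred on its own mean, over 10728 other genes. The profiles of Ihh and Boc are mostly their difference between the sites, so genes with a site difference of like size rank close. With 2518 genes called between the sites, closeness to these members is a description only and was not tested. Closest to Ihh were Msmo1, an enzyme of cholesterol synthesis (0.127), Dusp1, a phosphatase of MAP kinases (0.137), and Hoxb5 (0.143), beside a spread of 0.789 for Ihh itself. Msmo1 stood at 164.6, 170.0, 166.1 and 130.3 FPKM in vSSC, against 56.1, 64.8, 48.1 and 39.0 FPKM in lbSSC. Hoxb5 was near the floor, at 1.73, 2.38, 2.58 and 1.64 FPKM in vSSC, against 0.179, 0.258, 0.0633 and 0 FPKM in lbSSC. In FPKM it thus differed between the sites by a larger ratio than Ihh, and its likeness rests on the added 1. Closest to Boc were Jph2 (0.0878), Adgrl2 (0.0966) and Col5a2, a fibrillar collagen chain (0.115), beside a spread of 0.772. Jph2 was low as well, at 0.405, 0.552, 0.270 and 0.623 FPKM in vSSC, against 2.83, 2.45, 2.75 and 3.51 FPKM in lbSSC. That is a larger ratio between the sites than that of Boc. Closest to Gli1 were Tnks (0.0607), Gatsl2 (0.0642) and Vcl (0.0801), beside a spread of 0.239.

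The sexes did not separate in these genes. In the comparison of male with female libraries, with site as a covariate, none of the 10 members was called, against 0.0466% of all genes tested (0.0373% higher and 0.00932% lower in males), and none had an unadjusted limma p under 0.05. The largest sex differences were those of Gli2 (-0.35 ± 0.23, adjusted p = 0.669), Gli1 (-0.32 ± 0.15, adjusted p = 0.613) and Ihh (0.26 ± 0.14, adjusted p = 0.639), male minus female. The interaction of site and sex was called in no member, against 0.0% of all genes tested. Without adjustment, limma's moderated test over all genes gave a p under 0.05 for 405 genes, 2 of them members: Ihh (0.0384) and Gas1 (0.0496). The site difference of Ihh was 1.23 between male libraries and 1.80 between female libraries, and that of Gas1 was -1.16 between male libraries and -1.65 between female libraries, with interaction adjusted p = 0.981 for both.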

How the data were processed

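Expression was measured by RNA-seq in 8 libraries of sorted cells, 4 vSSC and 4 lbSSC. The authors deposited 1 table of FPKM for all libraries. Per the labels' protocols, RNA came from RNeasy kits, cDNA from SMART-Seq v4 and libraries from Nextera XT, which do not mark the strand. The submitters' processing notes name bcl2fastq 2.19, STAR 2.5.2, Cufflinks 2.1.1 and GRCm38. Their settings were not given in the sources used. Low FPKM values did not give whole reads, so depth per library is unknown and no counting interval is given.

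The table had 22053 rows, of which 46 repeated an identifier and 40 were marked LOWDATA. GENCODE M21 held 99.25% of the identifiers, and 82.19% of the start positions were 1 below it, so 1 was added to starts. Values were tested as log2(FPKM + 1), where the 1 is a pseudocount, with limma 3.58.1 in R 4.3.3 (empirical Bayes with a trend), for the 10729 rows with at least 1 FPKM in at least 4 libraries. P-values were adjusted by Benjamini-Hochberg over these rows, with calls at 0.05. The site comparison had no covariate, the sex comparison had site as a covariate, and the interaction had both. The fit was tested on simulated data. Tables were handled in Python 3.11.15 with pandas 2.3.3.

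The members and lists were chosen with earlier results of these data known. All members are named, together with every called gene of the other pathway lists, up to 3 uncalled genes with the highest mean FPKM per list, and the 3 genes closest in profile to Ihh, Boc and Gli1. Sufu, Pthlh, Foxf2, Shh, Dhh and Lrp2 were named for their role after their values were seen. Some genes of the lists are not reported here. Alternatives covered the pseudocount, the filter, the scaling, the variance model, library weights, covariates, a replicate block and libraries left out. For genes of the other pathway lists they were chosen after seeing the data.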

Additional observations from a re-analysis of the deposited data

Results flagged for a closer look

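Smo in lbSSC replicate 1, at 93.1 FPKM, lay apart from the other 3 lbSSC libraries, which held 89.0, 88.5 and 88.2 FPKM. Its gap to the nearest of them was 0.831 of the group's whole range, just past Dixon's 95% critical value for 4 samples. Over the 20 groups of 4 libraries examined, chance gives about 1 such flag. The 4 vSSC libraries, at 75.7 to 83.9 FPKM, gave none.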

How the results depend on the processing

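The number of members called was 7 in the main comparison and 5 to 8 in the 21 alternatives. Ihh, Hhip, Boc and Gas1 were called in all 21. The number of genes called, 2518, became 1450 where low values were not filtered, 1095 without vSSC replicates 1 and 3, and 623 where each library's ribosomal protein share was a covariate. With single libraries left out it ranged from 1534 to 2991, and fell by over 1.5 times where vSSC replicate 1 (1673 genes), vSSC replicate 3 (1646), lbSSC replicate 3 (1534) or lbSSC replicate 4 (1589) was the one removed. The site difference turned in sign for Gli1 without vSSC replicates 1 and 3 (0.011). Where the ribosomal protein share was a covariate, it turned for Gli1 (0.27), Gli2 (0.066) and Gli3 (0.096). The cause was not tested, and share and site went largely together. Gli2 and Gli3 were not tested with the filter at 5 FPKM.

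The number of genes called between the sexes, 5, became 3 with no filter, 3 with the filter at 5 FPKM and 13 with library weights, and 5 to 7 with single libraries left out. No member was called between the sexes or in the interaction under any alternative. After median-of-ratios scaling, quantile normalization and rescaling to one sum, the sex difference turned to -0.058, -0.087 and -0.072 for Smo and to -0.018, -0.051 and -0.033 for Gas1. The interaction turned for Gli1 to 0.019 and 0.077 under the first and last of these scalings, and for Smo to 0.097 and 0.058 under quantile normalization and rescaling to one sum. With single libraries left out, the sex difference ran from -0.012 to 0.047 for Smo, -0.021 to 0.16 for Gas1, -0.20 to 0.13 for Ptch1 and -0.24 to 0.044 for Cdon. The interaction then ran from -0.25 to 0.18 for Gli1, -0.14 to 0.010 for Smo, -0.12 to 0.83 for Gli2, -0.37 to 0.58 for Gli3 and -0.54 to 0.29 for Ptch1.

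Samples with the same replicate number did not deviate together throughout (correlations of 0.257, -0.0878, -0.0639 and 0.435 for numbers 1 to 4), and not every sample correlated best with its own number, so the numbers are not taken as pairs. With the replicate number as a block, 3194 genes and 7 members were called, and no member's call changed. The depth of the libraries is unknown, which limits what can be said of the lowest members, Gli2 and Gli3.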
